A study of Homo sapiens with 4 samples.

Results

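In 4 lists of regions where one m6A-immunoprecipitated RNA library exceeded another, 304 of 4889 peaks were broad, that is, 400 bp long or more. The 182 described here were chosen by their deposited length from the 4347 peaks that lie on autosomes and outside 2 densely covered stretches of chromosome 19 (chr19:36759307-36800430 and chr19:37759760-37797177, genome build hg19). The other broad peaks lay in those stretches (92) or off the autosomes (30). Of the 182, 129 were slow-higher, with more signal in a library from cells with a slow-elongating RNA polymerase II (RNAPII), and 53 were WT-higher, with more signal in a library from cells with the form labelled wild type. The same chromosomes held 4165 narrower peaks, against which the broad ones are set.

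All libraries came from HEK293, a human embryonic kidney cell line, in which an α-amanitin mutant of RNAPII, slow (2 libraries) or WT (2 libraries), was expressed. Every culture was given doxycycline (1 µg/ml, 24 h) and then doxycycline together with α-amanitin (2.5 µg/ml, 42 h), a toxin that blocks RNAPII. Whether replicate libraries were grown separately is not stated in the labels, and their spread may be technical. The study maps m6A under the slow and the WT polymerase, and each same-numbered pair of libraries (pair 1, pair 2) was compared in both directions.

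N6-methyladenosine, m6A, is a methyl mark that a nuclear enzyme complex places on adenosines of RNA, largely while the transcript is being made. It is known to be common near stop codons and in long internal exons of mRNA, and often several marked adenosines lie close together. In MeRIP-seq an antibody pulls down fragmented RNA, so the width of a peak from an isolated site depends on the length of the fragments that carry it. A much wider peak needs fragments from further along the RNA. No input library entered the deposited comparisons, so a peak can stand for more methylation, more transcript, or both, and these cannot be told apart here.

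Per the file headers, the libraries kept 698050 and 547402 reads (slow, pairs 1 and 2) and 1695246 and 1136611 reads (WT) after duplicate removal, which took away 92% to 96% of reads. The fragment length used by the caller was 116 and 124 bp for the slow-higher lists and 141 and 139 bp for the WT-higher lists, and equals the shortest peak of each list. The limit of 400 bp is therefore 3.45 and 3.23 fragment lengths in the slow-higher lists but 2.84 and 2.88 in the WT-higher lists. The peaks just inside and just outside the limit measured 400 and 399 bp (slow-higher, pair 1), 402 and 397 bp (slow-higher, pair 2), 400 and 399 bp (WT-higher, pair 1) and 401 and 396 bp (WT-higher, pair 2).

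Broad peaks were a small part of every list and a larger part of the sequence it covered. The slow-higher lists held 70 of 1650 peaks in pair 1 (4.24%, exact Clopper-Pearson 95% interval 3.32% to 5.33%) and 59 of 1154 in pair 2 (5.11%, 3.91% to 6.55%). The WT-higher lists held 27 of 870 (3.10%, 2.05% to 4.48%) and 26 of 673 (3.86%, 2.54% to 5.61%). With a limit of 300 bp the mean shares were 10.0% (slow-higher) and 10.1% (WT-higher). The intervals of the 2 directions overlap at 400 bp, they cover counting error only, and peaks are not replicates of the cells. Broad peaks spanned 41522 and 34831 bp, or 13.6% and 15.4% of the length covered by the slow-higher lists, against 16215 and 15546 bp, or 9.02% and 11.1%, of the WT-higher lists. The rule left out 51 and 41 further slow-higher peaks of this length in the 2 stretches of chromosome 19 and no WT-higher one.

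**Figure D1:**
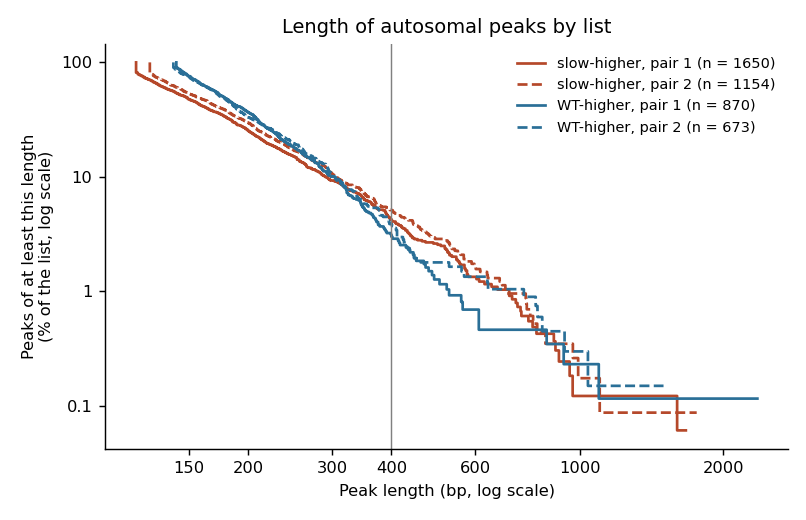
Share of autosomal peaks (vertical axis, % of the list, log scale) that reach a given length (horizontal axis, bp, log scale) in each list; the vertical line marks 400 bp. At the line the slow-higher lists stand at 4.24% and 5.11% and the WT-higher lists at 3.10% and 3.86%, and the curves cross to the left of it.

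Within each pair, slow-higher broad peaks outnumbered WT-higher ones. The slow-higher share of broad peaks was 72.2% in pair 1 (70 against 27, 62.1% to 80.8%) and 69.4% in pair 2 (59 against 26, 58.5% to 79.0%). Among narrower peaks the share was 65.2% and 62.9%. The means were 70.8% ± 1.95 for broad and 64.0% ± 1.66 for narrower peaks (SD, n = 2), and the exact sign-flip test of the broad share against 50% gave p = 0.5, the smallest that 2 pairs allow. The exact sign-flip test gave the same value for narrower peaks, so it cannot set the broad ones apart. Since length chose the members, the shares of broad peaks are a description. Counting lengths in fragments instead, with 3 fragment lengths as the limit, the slow-higher share was 83.3% in pair 1 and 77.0% in pair 2.

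The tail above the limit was not the same in the 2 directions. At 500 bp or more there were 43 and 33 slow-higher peaks and 11 and 12 WT-higher peaks, and at 600 bp or more 22 and 19 against 6 and 9. Each of the 4 lists had 2 peaks of at least 1000 bp. The median length of broad peaks was 529.5 and 531 bp in the slow-higher lists and 479 and 454 bp in the WT-higher lists, a mean over the pairs of 530 ± 1.06 bp against 466.5 ± 17.7 bp (SD, n = 2). This order depends on the limit: among peaks of 500 bp or more the mean of the medians was 620 bp in the slow-higher and 697 bp in the WT-higher lists.

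The longest slow-higher peak was at one place in both pairs. At chr4:752059-753815 the peak was 1667 bp long in pair 1 and 1757 bp in pair 2, with 49 and 46 fragments over its highest point (the summit) and a fold over the WT background of 22.4 and 19.2. Both ends lay within 50 bp of each other and the summits 20 bp apart, at 22.03% and 22.4% of the peak's length. It was the only slow-higher region with more than 1000 bp in 1 peak in both pairs. Next in length, chr1:2212347-2213970 had 1 peak of 1598 bp in pair 1, and in pair 2 a peak of 964 bp with one of 263 bp before it. The third region, chr16:89365692-89366680, measured 963 and 989 bp and was taller, with 83 and 77 fragments. Its fold was 8.35 and 9.48 over a WT background of 9.06 and 7.22 fragments, scaled down to the depth of the slow library.

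The other slow-higher regions at the top of the ranking ran from 698 to 1098 bp. chr17:79664134-79664908, of 748 and 771 bp, had its summit on the same base in both pairs, with folds of 15.9 and 12.5. chr8:145859515-145860298 had 731 and 784 bp with folds of 19.1 and 12.1, and summits in different parts of the peak, at 23.7% and 52.5% of its length. chr9:140507893-140508777, of 879 and 811 bp, had the most distant summits of all slow-higher regions broad in both pairs, 522 bp apart. Similar outlines went with 1 shared summit in the first of these regions and with distant summits in the other two.

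Tall but little enriched broad peaks were also seen. chr17:43226906-43227656 had the highest pileup of any member, 106 fragments in pair 1 and 102 in pair 2, over 751 and 698 bp, at folds of 3.54 and 3.81. The WT background, scaled down to the depth of the slow library, was 29.2 and 26.0 fragments, so many fragments of this region were immunoprecipitated in WT cells too. chr19:55608317-55609129, outside the stretches left out, had 90 fragments in both pairs over 793 and 795 bp, with folds of 5.21 and 6.98. At the other extreme, the highest folds of broad peaks were at chr19:11200805-11201705, with 34.0 in pair 1 (901 bp) and 36.4 in pair 2 (559 bp); this region was picked out after its values were seen.

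The longest WT-higher peaks stood in 1 run on chromosome 14. Between chr14:23586458 and 23591097, pair 1 had 3 broad peaks of 922, 1093 and 2358 bp and pair 2 had 4, of 926, 1037, 461 and 1496 bp, together 4373 and 3920 bp. The 2358 bp peak, chr14:23588740-23591097, was the longest in the whole set. In pair 2 the same place was split into 2 broad peaks by a gap of 75 bp, and the summits of the longest peaks were 6 bp apart. Unscaled, the run's broad peaks had 113 to 125 fragments in pair 1 and 65 to 114 in pair 2. Their folds were 23.8 and 26.2 at the 2 longer peaks of pair 1 and 18.3 to 28.0 in pair 2. At chr14:23586458-23587386 the fold was 7.99 in pair 1 and 28.0 in pair 2, where the slow background was 5.00 and 1.00 fragments. The WT library had 114 fragments in each, which scaling to the depth of the slow library brought to 46.9 and 54.9. The full run of neighbouring WT-higher peaks, chr14:23583304-23591800, held 8 peaks in pair 1 and 5 in pair 2.

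Outside that run, 7 WT-higher regions were broad in both pairs, and they were shorter and less tall. chr5:124079839-124080687 measured 849 and 831 bp and ended on the same base in both pairs, yet its summits were 298 bp apart and its folds 12.9 and 5.31. chr15:96875031-96875608 had 561 and 562 bp with folds of 5.27 and 9.04, and chr1:46072902-46073514 had 611 and 529 bp with folds of 13.8 and 5.11. In these 3 regions the folds of the pairs differed more than the lengths did. The remaining 4 were chr12:107712472-107713062 (505 and 569 bp, folds 8.46 and 10.8), chr5:115782366-115783254 (445 and 812 bp, folds 3.16 and 4.90), chr8:128752758-128753191 (434 and 411 bp, folds 9.76 and 8.21) and chr8:144681347-144681916 (565 and 409 bp, folds 8.38 and 11.5).

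**Figure D2:**
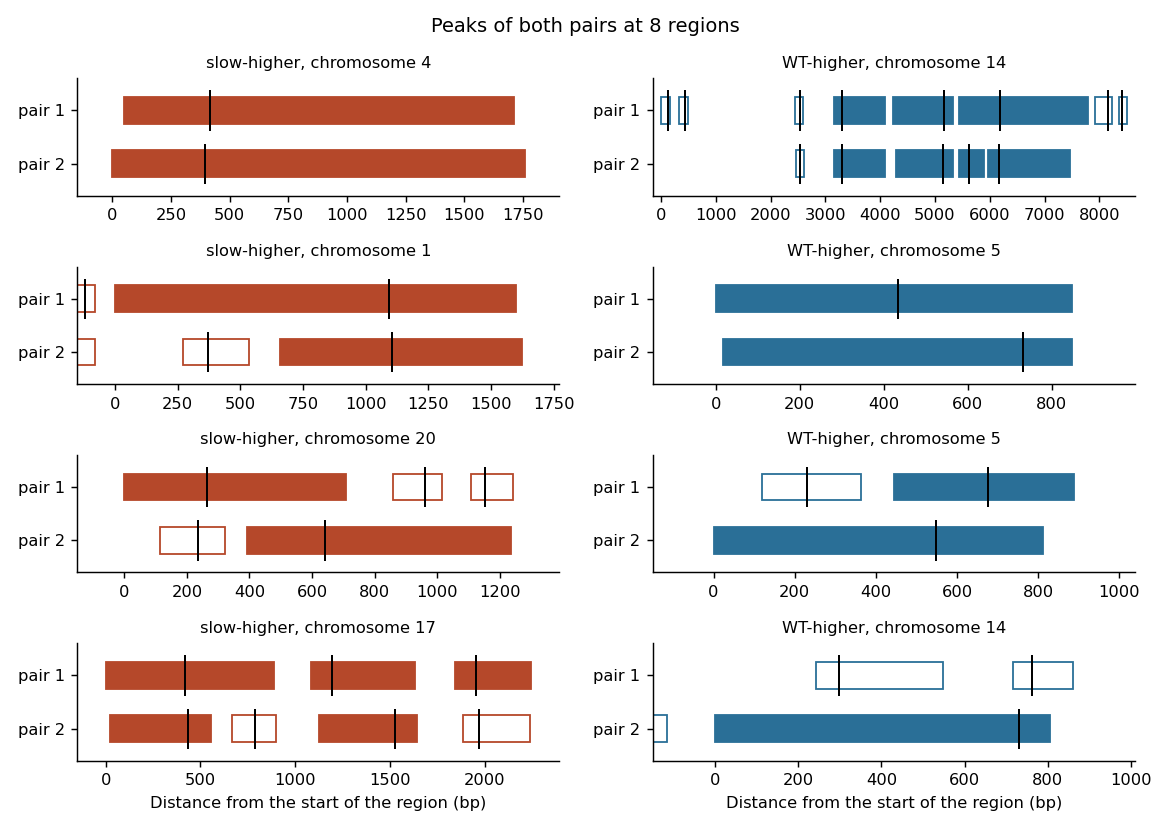
Peaks of pair 1 (upper row) and pair 2 (lower row) at 8 regions, drawn to scale as distance in bp from the start of the region; slow-higher regions are on the left and WT-higher on the right. Filled boxes are broad peaks, open boxes narrower ones, and black ticks summits; 1 broad peak in a pair faces up to 3 peaks in the other.

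Broad peaks were taller than narrower ones in all 4 lists. The pileup is the number of fragments over the summit, with WT libraries scaled down to the depth of their slow partner. Its median was 23.5 and 19 in slow-higher broad peaks against 12.5 and 10 in narrower ones, and 17.7 and 17.1 in WT-higher broad peaks against 10.7 and 11.6. The range was wide, 5 to 106 and 5 to 102 fragments in slow-higher and 7.41 to 51.5 and 4.82 to 54.9 in WT-higher broad peaks, so length did not stand for height: across the members of a list, Spearman's rho of length with pileup was 0.31 (n = 70), 0.35 (n = 59), 0.24 (n = 27) and 0.47 (n = 26), over peaks that share their library and depth. The mean over pairs of the median pileup was 21.25 ± 3.18 in slow-higher and 17.4 ± 0.43 in WT-higher broad peaks (SD, n = 2), an order that turned to 24 against 27.4 among peaks of 500 bp or more.

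The fold followed the same order. Its median was 11.8 and 12.5 in slow-higher broad peaks and 6.26 and 6.63 in narrower ones, and 9.28 and 9.92 in WT-higher broad peaks and 6.79 and 6.92 in narrower ones. A fold of 10 or more was reached by 43 of 70 and 38 of 59 slow-higher broad peaks and by 9 of 27 and 13 of 26 WT-higher ones. The shares were 61.4%, 64.4%, 33.3% and 50%, against 12.8%, 12.9%, 10.7% and 9.74% of the narrower peaks of those lists. No member had a fold at or under the ratio of kept reads between the 2 libraries (2.43 and 2.08). Few narrower peaks did either, 28 of 1580 and 5 of 1095 slow-higher and 1 of 843 and 2 of 647 WT-higher ones. This therefore hardly sets the members apart. These are the caller's values of the comparison that also set the lengths, so they describe the members and are not tested.

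Summits of broad peaks were spread along the peak. With each peak cut into 3 equal parts from left to right in genome coordinates, summits fell 22, 24 and 24 times in slow-higher pair 1 and 17, 26 and 16 times in slow-higher pair 2. In the WT-higher lists they fell 10, 6 and 11 and 9, 5 and 12 times. The middle part held 34.3% and 44.1% of slow-higher broad peaks and 22.2% and 19.2% of WT-higher ones, against 57.3%, 61.0%, 62.9% and 59.2% of the narrower peaks of those lists. The intervals for broad peaks were 23.3% to 46.6% and 31.2% to 57.6% (slow-higher), and 8.62% to 42.3% and 6.55% to 39.4% (WT-higher). Each includes an even spread over the 3 parts, and those of the 2 directions overlap. Regions broad in both pairs count in both lists of a direction. The median position, averaged over the pairs, was 0.49 of the length in slow-higher and 0.57 in WT-higher members, but 0.530 and 0.511 with a limit of 300 bp, so its order between the directions turned with the limit. The lists hold no strand, so left and right cannot be read as upstream and downstream. The summit lay within 100 bp of an end in 9, 10, 7 and 4 members, against 93.0%, 90.0%, 86.4% and 87.3% of the narrower peaks of those lists. That distance depends on length, which chose the members, so it does not set them apart. Whether the share in the middle part also depends on length was not tested.

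**Figure D3:**
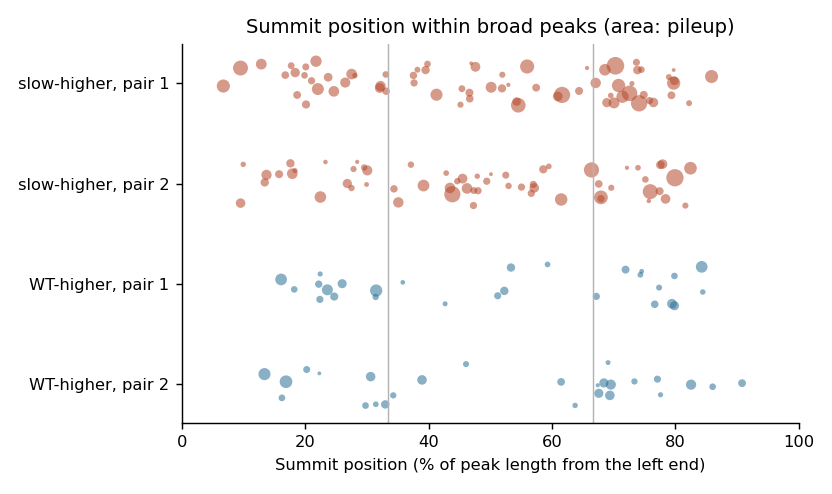
Position of the summit along each broad peak (horizontal axis, % of peak length from the left end in genome coordinates), with 1 row for each list and the point area proportional to pileup; vertical spread within a row is only to separate points, and vertical lines divide the peak into 3 equal parts. Slow-higher summits are spread over all 3. In the WT-higher lists 22.2% and 19.2% lie in the middle part, with intervals that include an even spread over the 3.

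Most broad peaks recurred in the pair that had not chosen them. A peak of the same direction in the other pair overlapped 60 of 70 (85.7%, 75.3% to 92.9%) and 52 of 59 (88.1%, 77.1% to 95.1%) slow-higher broad peaks, beside 40.9% and 58.6% of all peaks of those lists. In the WT-higher lists it overlapped 23 of 27 (85.2%, 66.3% to 95.8%) and 21 of 26 (80.8%, 60.6% to 93.4%), beside 29.8% and 38.2% of all peaks. Among narrower peaks the shares were 38.9% and 57.0% (slow-higher) and 28.0% and 36.5% (WT-higher). Broad minus narrower was 46.8 and 31.2 percentage points for slow-higher (mean 39.0 ± 11.1, SD, n = 2) and 57.2 and 44.3 points for WT-higher peaks (mean 50.7 ± 9.12). It was positive in both pairs in each direction, and the exact two-sided sign-flip test gave p = 0.5 in each, the smallest possible. The values of the 2 pairs count the same overlaps between the pairs, each from its own side, so they are not independent. Their SD is therefore not a spread between replicates, and the test cannot decide.

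A longer peak has more room to overlap another, so summits were compared too. With summits required to lie within 100 bp, 71.4% and 62.7% of slow-higher broad peaks recurred and 51.9% and 53.8% of WT-higher ones, against 35.9%, 53.0%, 25.1% and 32.8% of narrower ones. The broad share was still the higher one in each list. Where broad peaks recurred, the other pair's peaks covered a median of 83.8% and 87.3% of a slow-higher member and 72.2% and 86.4% of a WT-higher member. The median distance between summits was 19.5 and 43 bp for slow-higher and 25 and 32 bp for WT-higher broad peaks, against 15, 14, 12.5 and 12 bp for narrower ones.

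For broad and for narrower peaks alike, the recurring share was lowest in the lowest height band of each list. Below 20 fragments, the recurring share was 72.0% and 77.4% of slow-higher broad peaks and 81.25% and 71.4% of WT-higher broad peaks, against 33.5%, 48.1%, 22.5% and 34.4% of narrower peaks. From 20 to under 40 the shares were 92.3%, 100%, 85.7% and 90.0% for broad and 51.1%, 82.2%, 55.6% and 45.1% for narrower peaks. At 40 or more they were 94.7%, 100%, 100% and 100%, against 48.0%, 91.0%, 63.6% and 35.3%. The WT-higher broad peaks of this band numbered only 4 and 2. The share of narrower peaks was lower here than from 20 to under 40 in slow-higher pair 1 and WT-higher pair 2. The broad share was the higher one in every band of every list when any overlap counted. With summits within 100 bp it was the lower one in 3 of them: 68.4% against 78.8% from 20 to under 40 and 88.9% against 90.1% at 40 or more in slow-higher pair 2, and 28.6% against 50.8% from 20 to under 40 in WT-higher pair 1.

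**Figure D4:**
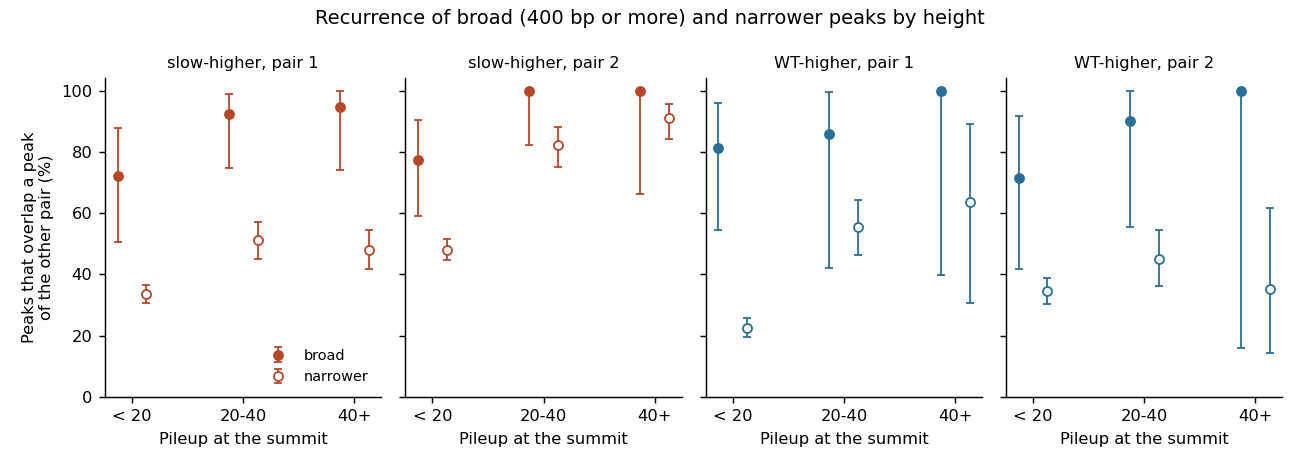
Share of peaks that overlap a peak of the same direction in the other pair (vertical axis, %) by pileup at the summit (horizontal axis, fragments after scaling), for broad (filled) and narrower (open) peaks of each list; bars are exact 95% binomial intervals and cover counting error only. Broad peaks stand above narrower ones in each band, with wide intervals for WT-higher peaks.

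The form in the other pair differed from region to region. Of the 60 recurring slow-higher members of pair 1, 31 met 1 broad peak, 6 several peaks with a broad one, 15 a single narrower peak and 8 several narrower peaks. In slow-higher pair 2 the counts were 33, 4, 10 and 5 of 52. In WT-higher pair 1 they were 9, 1, 12 and 1 of 23, and in WT-higher pair 2 they were 10, 1, 8 and 2 of 21. A broad peak was thus met by 61.7% and 71.2% of recurring slow-higher members (48.2% to 73.9% and 56.9% to 82.9%) and by 43.5% and 52.4% of recurring WT-higher members (23.2% to 65.5% and 29.8% to 74.3%). These intervals overlap, and at 500 bp or more the shares in pair 1 were 63.2% and 70.0%, with the WT-higher one the larger. Of all members, recurring or not, 52.9% and 62.7% (slow-higher) and 37.0% and 42.3% (WT-higher) met a broad peak of the other pair, beside 3.7%, 6.33%, 2.64% and 3.71% of all peaks of those lists.

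**Figure D5:**
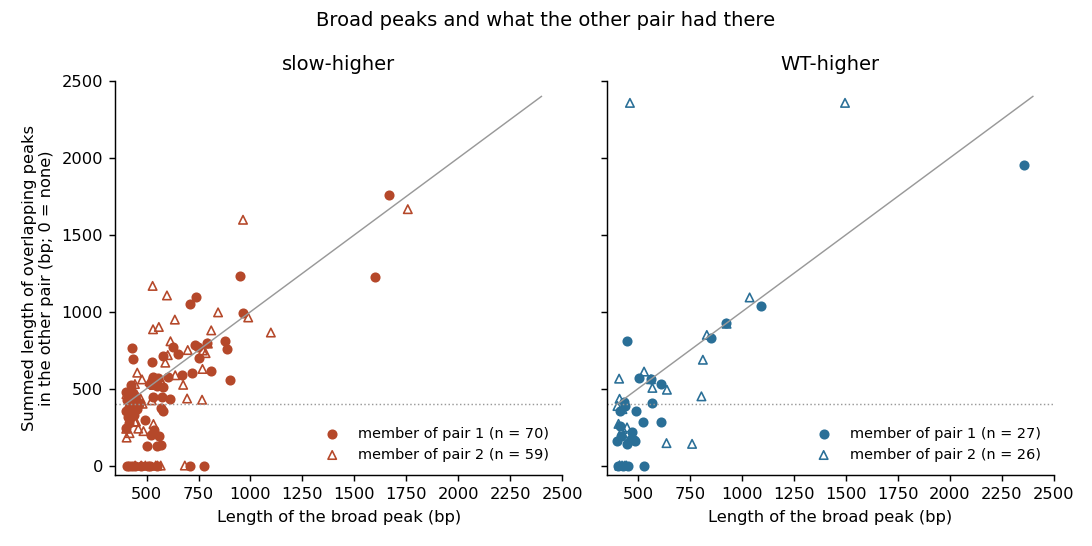
Length of each broad peak (horizontal axis, bp) against the summed length of the same-direction peaks it overlaps in the other pair (vertical axis, bp; 0 where there is none), for members of pair 1 (filled circles) and pair 2 (open triangles); the diagonal marks equal lengths and the dotted line 400 bp. Members without a peak in the other pair lie on 0 and are at most 777 bp long.

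Several peaks in place of 1 were met by 28 of the 156 recurring members. By list these were 14 and 9 slow-higher members (23.3% and 17.3% of those recurring) and 2 and 3 WT-higher members (8.70% and 14.3%). The gaps between the pieces were short, 68 to 183 bp and 66 to 151 bp in the slow-higher lists and 75 to 140 bp and 74 to 167 bp in the WT-higher lists. The caller left no gap under 66 bp in the slow-higher and 73 bp in the WT-higher lists, about the read length of 65 bp, so some splits were as small as a list can show. The most divided member was slow-higher in pair 2, chr20:60740569-60741412 of 844 bp, which met 3 peaks of 708, 155 and 133 bp.

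Other members met 2 peaks. The slow-higher peak chr12:122688266-122689214 of pair 1 was 949 bp long at a fold of 34.0, and pair 2 had 2 broad peaks of 598 and 636 bp there, with folds of 27.0 and 18.8 and a gap of 68 bp. chr1:249097063-249098160, 1098 bp in pair 2, met 737 and 128 bp in pair 1. In the WT-higher lists, chr12:65268928-65269566 (639 bp, pair 2, fold 17.4) met 2 narrower peaks of 263 and 230 bp, and chr14:38060978-38061782 (805 bp, pair 2) met 305 and 145 bp. chr8:72754430-72755040 (611 bp, pair 1) met 139 and 141 bp, each about 1 fragment length. In these last 3 regions no peak of the other pair was broad.

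Neighbouring broad peaks formed clusters that both pairs saw in part. At chr17:74070382-74072627 slow-higher pair 1 had 3 broad peaks of 886, 548 and 401 bp with folds of 18.6, 13.2 and 20.4. Pair 2 had 4 peaks of 531, 230, 515 and 353 bp with folds of 15.9, 10.9, 11.7 and 11.3, of which 2 were broad, so the covered length was 1835 bp in pair 1 and 1629 bp in pair 2. At chr21:18984801-18986034 pair 1 had 518 and 650 bp and pair 2 had 529 and 199 bp, and at chr17:77807498-77809171, with folds near 3 (3.00 and 3.36), pair 1 had 612 and 508 bp and pair 2 had 130 and 300 bp. Another peak of the same list lay within 1 kb of 36 of 70 and 25 of 59 slow-higher members (51.4% and 42.4%) and of 9 of 27 and 12 of 26 WT-higher members (33.3% and 46.2%). The shares for narrower peaks were 29.2% and 26.4% (slow-higher) and 16.8% and 17.0% (WT-higher).

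Joining overlapping peaks of both pairs gave 91 slow-higher and 42 WT-higher regions with a broad peak. Of these, 36 slow-higher (39.6%, 29.5% to 50.4%) and 10 WT-higher regions (23.8%, 12.1% to 39.5%) were broad in both pairs. In the slow-higher regions 23 were broad in pair 1 and narrower in pair 2, 15 the other way round, and 10 and 7 were broad in pair 1 or pair 2 with no peak in the other. The WT-higher counts were 13, 10, 4 and 5. Where only 1 pair was broad, the longest peak of the other had a median of 265 and 283 bp (slow-higher) and 194 and 255.5 bp (WT-higher), so the other pair usually held a peak well short of the limit, though up to 397 and 387 bp.

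Regions broad in both pairs were chosen for their length in each, which limits how far the lengths can differ. Both ends of the longest peaks lay within 50 bp of each other in 15 of 36 slow-higher and 4 of 10 WT-higher regions, 1 end did in 15 and 4 more, and neither end did in 6 and 2. The length ratio had a median of 1.14 and 1.09 and reached 1.79 and 1.82. Summits differed by a median of 36 bp (0 to 522) and 44.5 bp (1 to 298). A fold of 10 or more in both pairs was found in 23 of 36 slow-higher and 2 of 10 WT-higher regions. Across regions, Spearman's rho between the pairs was 0.68 for length and 0.72 for fold in the slow-higher regions (n = 36), and 0.72 and 0.24 in the WT-higher regions (n = 10, of which 3 belong to the run on chromosome 14).

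Members without a counterpart had lower median pileups, with overlapping ranges. The 10 and 7 slow-higher ones had a median pileup of 12.5 and 10 fragments, against 26 and 22 in those that recurred, and the 4 and 5 WT-higher ones had 15.4 and 11.1 against 17.7 and 20.7. The highest were 59 and 13 fragments in the slow-higher lists and 23.9 and 20.2 after scaling in the WT-higher lists. The longest were chr8:145756555-145757331 (777 bp, 13 fragments, fold 11.4) and chr8:144389539-144390246 (708 bp, 12 fragments, fold 10.9) in slow-higher pair 1, and chr11:134007674-134008357 (684 bp, 6 fragments, fold 6.64) in slow-higher pair 2. Shorter ones were chr2:239204749-239205296 (548 bp, 5 fragments, fold 5.83) in pair 1, and chr19:3649281-3649848 (568 bp, 6 fragments, fold 6.72) and chr7:158631370-158631921 (552 bp, 11 fragments, fold 11.7) in pair 2. In the WT-higher lists they were chr8:18729655-18730183 (529 bp, scaled pileup 7.41, fold 7.37) in pair 1 and chr22:35660684-35661127 (444 bp, 8.19, fold 8.94) in pair 2. Next came chr6:64423100-64423550 (451 bp, 23.9, fold 6.22) and chr10:3823922-3824350 (429 bp, 19.35, fold 6.78) in pair 1, which were no lower than the median recurring member, and chr8:75157042-75157478 (437 bp, 11.1, fold 11.7) and chr4:17805931-17806353 (423 bp, 4.82, fold 5.58) in pair 2. The part of depth in their absence from the other pair was not tested.

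No broad peak overlapped a peak of the opposite direction in either pair, also not within 1000 bp, and the same held for all narrower peaks, so this does not set the members apart. Within a pair the 2 directions swap the same 2 libraries, so overlap there could hardly occur and its 0 tells nothing. The limit that a count of 0 allows is 4.29% of the 70, 5.08% of the 59, 11.1% of the 27 and 11.5% of the 26 members. This limit has meaning only for the other pair and for the 1000 bp window, and it takes peaks as independent. Within 10000 bp, 1 of the 27 WT-higher members of pair 1 had a slow-higher peak of pair 2, as did 3 of 843 narrower peaks.

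The members were spread over 16 and 19 (slow-higher) and 16 and 13 (WT-higher) autosomes. Chromosome 17 held the most slow-higher broad peaks, 13 of 70 and 9 of 59 (18.6% and 15.3%), against 9.49% and 9.32% of narrower ones. It held 0 of 27 and 1 of 26 WT-higher broad peaks (0% and 3.85%), against 5.34% and 5.41% of narrower ones. With so few members these counts are near the share of the lists. Counting peaks no more than 20 kb apart once left 10 of 65 and 8 of 57 on chromosome 17. Chromosome 19, outside the stretches left out, had 7 slow-higher members in each pair (10.0% and 11.9%, against 12.9% and 12.3% of narrower peaks) and no WT-higher one, where it held 4.63% and 5.72% of narrower peaks. Its share of members was thus near that of the lists. Among WT-higher members, chromosome 8 held 4 of 27 in pair 1 and 3 of 26 in pair 2 (14.8% and 11.5%, against 3.796% and 5.10% of narrower peaks). Chromosome 14 held 3 of 27 and 6 of 26 (11.1% and 23.1%, against 5.46% and 4.48%). With neighbours counted once chromosome 14 held 1 of 25 and 3 of 23, since all 3 of pair 1 and 4 of the 6 of pair 2 lie in the run described above.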

How the data were processed

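4 m6A immunoprecipitations of HEK293 RNA (slow and WT RNAPII, 2 libraries each) were compared as 2 same-numbered pairs, each called in both directions. The submitters' processing notes name TopHat2 and hg19; the version of TopHat2 is not given in the sources used here. MACS 2.1.1.20160309 called the peaks of each pair and direction with q-values up to 0.01 and at most 1 read for a position and strand, per the file headers. Pileup, as deposited, is coverage signal in fragments, and the larger (WT) library of a pair was scaled by 0.412 (pair 1) or 0.482 (pair 2), per the file headers. The deposited fold ratio equals (pileup + 1) over (background + 1). Here the background was computed from this ratio. It can lie below 1 scaled fragment, so it is not a plain count of fragments. The authors' lists also give p-values and q-values as −log10. Folds and pileups are values of 1 library against 1 library and carry no error.

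Members were the rows with a deposited length of at least 400 bp on autosomes outside the 2 stretches of chromosome 19. They, and the rules below, were chosen with earlier results of these data known. Peaks of the pairs were matched when they overlapped by at least 1 bp in the same direction, and overlapping peaks were joined into regions. The regions named are the 10 longest broad in both pairs by the shorter of the pairs' longest peaks, the 5 members that met most peaks of the other pair, the 3 longest without a counterpart in each list, and the longest members and those next to the limit. Intervals are exact (Clopper-Pearson) at 95%. Limits beside a count of 0 are 3 counts of the total. The test over pairs is an exact sign-flip test. The overlap code was tested on simulated data. Alternatives were other length limits, a stricter q-value, other overlap rules, height bands, other treatments of dense stretches, a fold above the depth ratio and leaving out a pair. Gene names and sequences were not used here, since the positions are on hg19 and the gene tables at hand are on another build. Calculations used Python 3.11.15, pandas 2.3.3, NumPy 2.4.6 and SciPy 1.17.1.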

Additional observations from a re-analysis of the deposited data

How the results depend on the processing

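Of 348 recomputed values, 288 stayed within the spread or interval of the reported value (for counts, within 1.5 times) or kept their test's direction, and 60 moved by more. Of these, 87 were lengths of named regions and all stayed, since the settings leave deposited lengths as they are. Regions no longer broad in both pairs gave no value and are counted below. Among the other 261 values, 201 stayed and 60 moved. A mean with an SD over 2 pairs cannot move when 1 pair is left out, so those values tell nothing. The order of the directions turned with the length limit for the mean list shares and summit positions at 300 bp, and at 500 bp for the mean lengths and pileups, for recurrence in both pairs (88.4% against 90.9% and 87.9% against 100%), for the share of pair 1 that met a broad peak (63.2% against 70.0%) and for the share of pair 2 that met several (20.7% against 25%). The order also turned for the mean recurrence difference, broad minus narrower. The larger difference was that of WT-higher peaks at 400 bp. It was that of slow-higher peaks at 300 bp and with 50% reciprocal overlap. With 2 pairs no test could pass its threshold, so the tests say nothing of stability. Of the 10 regions named as broad in both pairs in each direction, 6 slow-higher and 6 WT-higher met that rule with summits within 100 bp, 9 and 9 with 50% reciprocal overlap, 10 and 8 with −log10 q of at least 5, 9 and 10 without dense stretches, and 10 and 10 with peaks up to 100 bp apart. At a limit of 300 bp the lists were broad to 9.27% and 10.7% (slow-higher, mean 10.0%) and to 10.0% and 10.3% (WT-higher, mean 10.1%), where the means at 400 bp are 4.68% and 3.48%. With that limit 75 slow-higher and 21 WT-higher regions were broad in both pairs, the mean of the median lengths was 392 and 365.5 bp, the summit lay at 0.530 (slow-higher) and 0.511 (WT-higher) of the peak, the WT-higher pileup was 15.1, 11.3% of recurring members of slow-higher pair 1 met several peaks, and 50.6% of WT-higher pair 1 recurred. At 500 bp the shares were 2.61% and 2.86% (mean 2.73%) against 1.26% and 1.78% (mean 1.52%), with 23 slow-higher regions broad in both pairs, lengths of 620 (slow-higher) and 697 bp (WT-higher), a slow-higher summit at 0.534 and pileups of 24 (slow-higher) and 27.4 (WT-higher). Then 70.0% of recurring members of WT-higher pair 1 met a broad peak and 100% of WT-higher pair 2 recurred. With −log10 q of at least 5 the mean WT-higher share was 4.21%.

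With 50% reciprocal overlap, recurrence was 64.3% in slow-higher pair 1 and 51.9% and 53.8% in WT-higher pairs 1 and 2, and 77.8% of recurring members of slow-higher pair 1 met a broad peak. With summits within 100 bp, recurrence was 71.4% and 62.7% (slow-higher) and 51.9% and 53.8% (WT-higher), and 6 WT-higher regions were broad in both pairs. Under both rules 0% of members met several peaks in each list. With reciprocal overlap it could not be otherwise, since 2 separate peaks cannot each cover 50% of 1 member. Summits within 100 bp leave little room for several peaks too, so these values tell nothing of the splits. Keeping the chromosome 19 stretches gave slow-higher shares of broad peaks of 81.8% and 79.4%, and made 6.98% and 7.86% of the slow-higher lists broad (mean 7.42%). By height, recurrence was 72.0% below 20 fragments in slow-higher pair 1, 100% from 20 to under 40 in slow-higher pair 2, and 94.7%, 100%, 100% and 100% at 40 or more.

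2 alternatives were chosen after seeing the data. With a limit of 3 fragment lengths the slow-higher share was 83.3% in pair 1 and 77.0% in pair 2, 6.67% of the slow-higher list of pair 1 was broad, and the mean shares were 6.24% (slow-higher) and 2.75% (WT-higher). Without the run on chromosome 14, 7 WT-higher regions were broad in both pairs. Leaving out 1 pair gave slow-higher shares of 69.4% to 72.2% and leaves nothing to compare for recurrence, form and regions. No paired analysis was possible because peak lists give 1 value for a pair of libraries, which leaves nothing to fit with a replicate block. 2 pairs, 1 cell line and no input library limit what these lists can show, and the causes of the shifts above were not tested.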

Other observations

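Just below the limit, 38 and 25 slow-higher and 20 and 13 WT-higher peaks measured from 350 to under 400 bp, against 23 and 16 slow-higher and 10 and 13 WT-higher peaks from 400 to under 450 bp, so the limit falls within a continuous range of lengths. A further 15 and 13 slow-higher and 2 and 0 WT-higher peaks of at least 400 bp lay off the autosomes and were not analysed here. The scaled background was below 1 at 57.1% and 62.7% of slow-higher members, against 59.1% and 71.4% of narrower slow-higher peaks, and at 40.7% and 42.3% of WT-higher members, against 57.9% and 51.0% of narrower WT-higher peaks. At slow-higher peaks 1 WT background fragment counts as 0.412 or 0.482, so a value below 1 can stand for 1 or 2 fragments there. Other values, down to 0.0300 and 0.0251 at slow-higher members of pairs 1 and 2, are less than 1 scaled fragment and are not counts.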
